A study of Mus musculus with 9 samples.

Results

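The genes described here encode receptor chains for cytokines other than IL-15 in mouse natural killer (NK) cells, together with STAT4, the transcription factor that carries the IL-12 signal. They are Il4ra, Il21r, Il12rb1, Il12rb2, Il18r1, Il18rap, Il10ra, Il7r, Il6ra and Stat4. The rows were chosen by gene symbol, and all 10 were found among the 27179 genes of the count files. The names were selected on earlier results of these libraries, among them the comparison of Id2-null with WT cells, so a count of changed genes in this list is a description and not evidence about cytokine receptors as a class. RNA sequencing counts came from splenic NK cells of C57BL/6 mice. The groups were Id2-null NK cells grown in IL-15 for 7 days (3 libraries), wild-type (WT) NK cells grown in the same way (3 libraries), and wild-type NK cells sorted from spleen without culture and named Immature, M1 and M2 (1 library each). The labels state the culture for samples 1 to 6 and the sort for samples 7 to 9 without naming them, and the 6 libraries titled by genotype were taken as the cultured ones. The sources used here do not give how or in which cells Id2 was deleted, or which markers defined Immature, M1 and M2.

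NK cells read cytokines through chains that pair on the cell surface. IL-12 binds a receptor of IL-12Rβ1 and IL-12Rβ2 and acts mainly through STAT4, and IL-18 binds IL-18Rα (encoded by Il18r1) and needs IL-18Rβ (encoded by Il18rap) to signal through MyD88; together these cytokines are classical inducers of interferon gamma in NK cells. The chains encoded by Il4ra, Il21r and Il7r each pair with the common gamma chain that IL-15 also uses, and IL-4 signals through STAT6. The IL-10 and IL-6 receptor chains act mainly through STAT3. ID2 is a helix-loop-helix protein that binds E proteins and keeps them off DNA, where they recognise the E-box, CANNTG.

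Of these genes, 8 were expressed highly enough in the cultures to be tested, and Il4ra, Il21r and Stat4 rose in Id2-null cells. Il4ra and Il21r are neighbours on chromosome 7. Their promoters are printed here with that of Stat4 and that of Il12rb2, the gene with the largest difference in the other direction, because E proteins are the partners of ID2. Each window runs from 250 bases before to 50 bases after a RefSeq transcript start, 5′ to 3′ on the gene's strand, and capitals mark E-boxes (CANNTG, which reads the same on both strands; overlapping matches counted). The sequences are from RefSeq on GRCm38.p6, at chr7:125552021-125552320 (+) for Il4ra, chr7:125603179-125603478 (+) for Il21r, chr1:51986898-51987197 (+) for the upstream start of Stat4 and chr6:67376139-67376438 (-) for Il12rb2.
Il4ra: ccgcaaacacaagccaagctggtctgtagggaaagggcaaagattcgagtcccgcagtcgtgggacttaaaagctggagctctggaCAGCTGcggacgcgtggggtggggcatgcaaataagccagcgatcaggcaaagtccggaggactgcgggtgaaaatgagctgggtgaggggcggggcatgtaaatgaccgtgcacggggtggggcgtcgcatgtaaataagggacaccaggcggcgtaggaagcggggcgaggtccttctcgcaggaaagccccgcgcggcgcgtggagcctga
Il21r: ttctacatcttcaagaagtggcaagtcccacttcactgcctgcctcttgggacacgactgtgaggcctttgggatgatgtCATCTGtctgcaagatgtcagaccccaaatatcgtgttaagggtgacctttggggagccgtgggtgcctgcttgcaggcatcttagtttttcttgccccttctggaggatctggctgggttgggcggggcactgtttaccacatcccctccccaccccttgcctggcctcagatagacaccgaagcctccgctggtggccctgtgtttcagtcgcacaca
Stat4: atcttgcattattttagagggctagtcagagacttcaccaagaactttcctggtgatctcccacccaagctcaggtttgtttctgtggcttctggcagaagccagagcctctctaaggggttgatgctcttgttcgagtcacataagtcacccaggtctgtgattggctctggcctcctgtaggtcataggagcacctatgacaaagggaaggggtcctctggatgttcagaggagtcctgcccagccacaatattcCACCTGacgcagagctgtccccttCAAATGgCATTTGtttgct
Il12rb2: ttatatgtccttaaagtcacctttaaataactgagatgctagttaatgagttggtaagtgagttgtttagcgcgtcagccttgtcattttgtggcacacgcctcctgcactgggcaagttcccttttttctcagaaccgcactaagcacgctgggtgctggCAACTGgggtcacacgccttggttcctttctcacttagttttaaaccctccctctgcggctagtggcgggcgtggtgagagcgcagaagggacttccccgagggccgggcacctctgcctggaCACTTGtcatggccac

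The window of Il4ra held 1 E-box, which has the sequence CAGCTG, and that of Il21r held 1 of another sequence, CATCTG. The upstream Stat4 window held 3 E-boxes, a second Stat4 window at chr1:52007990-52008289 (+) held 1, and that of Il12rb2 held 2. An E-box occurs in 72.3% of all 32851 promoter windows of this length, and 39.6% hold at least 2 and 17.6% at least 3. The form CAGCTG occurs in 16.3% of all windows. Windows for 8 of the 10 genes were in the RefSeq table; Il12rb1 and Il10ra had none there. A match describes the letters only, and nothing about binding was measured.

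Total counts ran from 4128414 (Immature) to 4831831 (WT replicate 3), and a count of 0 leaves room for at most 0.578 to 0.764 CPM on the scale used here, depending on the library, for counting error only. The targeted gene Id2 averaged 15.1 ± 7.83 CPM in Id2-null cultures, against 394 ± 17.6 CPM in WT cultures (SD, n = 3 each). Of 7 NK marker genes all were detected, with a summed level of 6486 to 6748 CPM in Id2-null cultures, 5800 to 6220 CPM in WT cultures and 12969 to 16223 CPM in the sorted libraries. Xist, the X-inactivation RNA, averaged 781 ± 111 CPM in Id2-null cultures, against 0.663 ± 0.475 CPM in WT cultures (SD, n = 3 each), and the Y-linked Ddx3y 0.489 CPM in Id2-null cultures, against 74.7 CPM in WT cultures, so sex and genotype cannot be told apart in any difference below. The sorted libraries held both kinds of transcript, with Xist at 90.5 to 127 CPM and Ddx3y at 37.1 to 46.3 CPM. Nothing in the labels ties a replicate to its own mouse, so p-values measure only the variation among these libraries and that variation may be technical. In bulk RNA, fewer cells that express a gene and less RNA per cell cannot be told apart. Levels are CPM, read counts relative to library size, scaled by the trimmed mean of M values (TMM) over the 9 libraries.

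**Figure D1:**
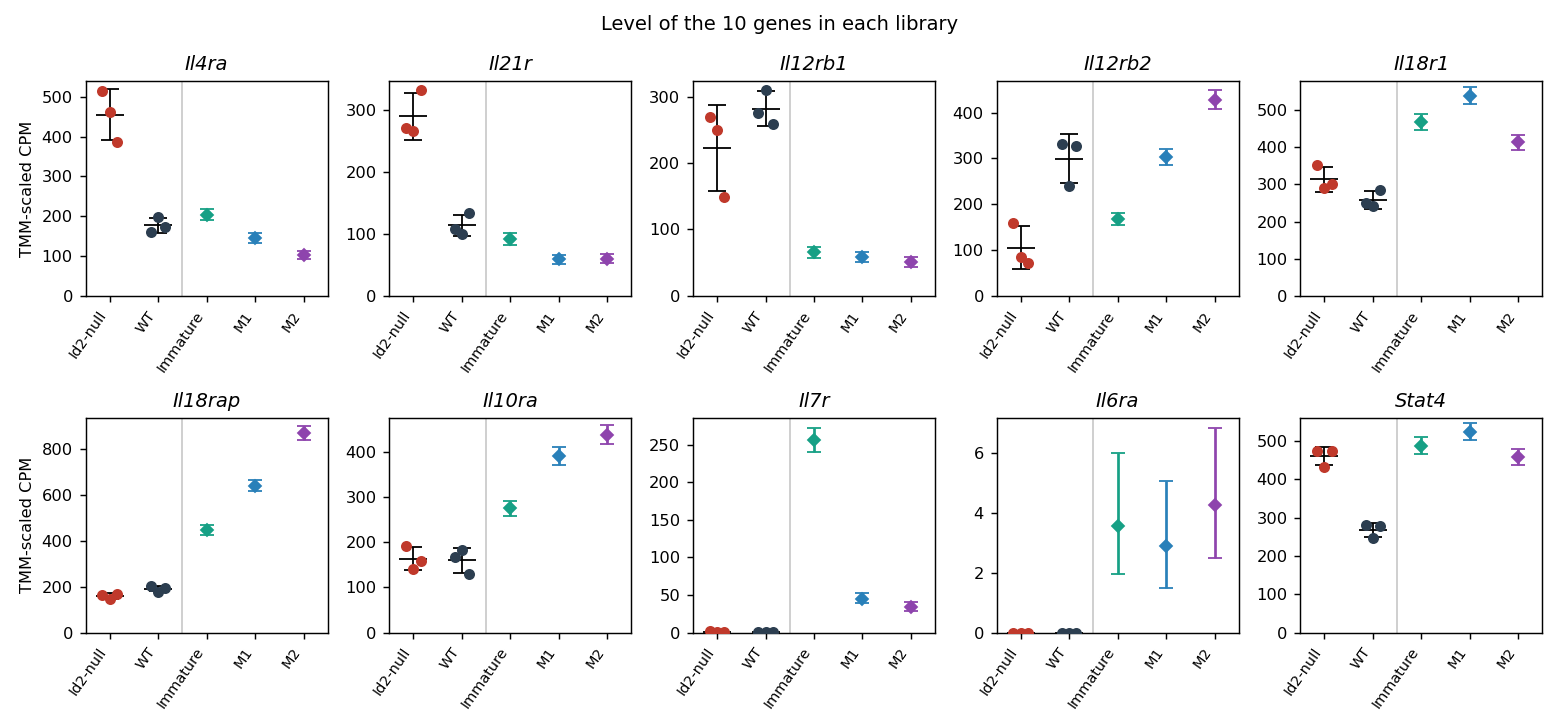
TMM-scaled CPM of the 10 genes in each library; circles are cultured libraries with mean and SD (n = 3 per genotype), and diamonds are single sorted libraries with exact 95% Poisson intervals. Each panel has its own axis from 0. The Il4ra, Il21r and Stat4 values of the 3 Id2-null cultures lie above all 3 WT cultures, and Il7r stands at 256 CPM in Immature cells and below 2 CPM in every culture.

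Il4ra, which encodes the chain that binds IL-4 and is shared by a receptor for IL-13, was about 2.6 times as abundant in Id2-null cells. Its level was 514, 463 and 387 CPM in Id2-null replicates 1 to 3, against 160, 199 and 172 CPM in WT replicates 1 to 3. Every Id2-null culture was above every WT culture and also above the 3 sorted libraries, the highest of which was Immature at 204 CPM. This is a log2 fold change of 1.37 with SE 0.15 (adjusted p = 0.00202, edgeR quasi-likelihood test). Il4ra (Entrez 16190, chromosome 7, positions 125552271 to 125579474 in GRCm38.p6) was called under every alternative tried, with adjusted p of at most 0.0241.

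Il21r, which encodes the chain that binds IL-21, a cytokine of activated helper T cells, rose by nearly the same factor. Its level was 271, 266 and 333 CPM in Id2-null replicates 1 to 3, against 108, 99.9 and 133 CPM in WT replicates 1 to 3. The genotypes did not overlap, and the Id2-null values were again above all other libraries. On the log2 scale the difference was 1.35 with SE 0.15 (adjusted p = 0.00249, edgeR), and the call held under every alternative with adjusted p of at most 0.0338. Il21r (Entrez 60504, chromosome 7, positions 125603252 to 125634397) starts 23777 bases after the end of Il4ra, with no other protein-coding gene of the files between them. The next such gene on the far side of Il21r, Gtf3c1, which encodes a subunit of a transcription factor of RNA polymerase III, averaged 115 ± 10.7 CPM in Id2-null cultures, against 118 ± 6.41 CPM in WT cultures (SD, n = 3 each; log2 fold change -0.04, edgeR adjusted p = 0.934). The next on the far side of Il4ra, Nsmce1, which encodes a subunit of the SMC5/6 complex, rose to 69.5 ± 15.2 CPM in Id2-null cultures, against 38.0 ± 4.72 CPM in WT cultures (log2 fold change 0.88, edgeR adjusted p = 0.042). Both flanking genes were picked for position after the Il4ra and Il21r values were known.

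Stat4 rose less. Its level was 473, 433 and 473 CPM in Id2-null replicates 1 to 3, against 280, 247 and 277 CPM in WT replicates 1 to 3. The Id2-null values lay close together, did not overlap with WT and fell within or just below the range of the sorted libraries (457 to 523 CPM), while the WT cultures were below that range. On the log2 scale the rise was 0.78 with SE 0.11 (adjusted p = 0.00849, edgeR). The call was lost without WT replicate 1 (adjusted p = 0.0579) or WT replicate 2 (adjusted p = 0.055). Stat4 (Entrez 20849) lies on chromosome 1 at positions 51987106 to 52107189.

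Il12rb2, the signalling chain of the IL-12 receptor, had the largest difference of the 8 genes by size, but it did not pass the threshold in the fit with genotype alone. Its level was 158, 85.2 and 71.8 CPM in Id2-null replicates 1 to 3, against 332, 239 and 328 CPM in WT replicates 1 to 3. The genotypes did not overlap, yet Id2-null replicate 1 stood well above the other Id2-null libraries. The log2 fold change of -1.51 had an SE of 0.31 (adjusted p = 0.0576, edgeR). With the replicate number as a block it passed (adjusted p = 0.0202), as it did without Id2-null replicate 1 (adjusted p = 0.00755), with limma voom (0.0311), with DESeq2 (8.91e-06), with library sizes alone as scaling (0.0456) and without robust estimation (0.0383). It did not pass with no expression filter (0.106), with all 9 libraries in the fit (0.0608), or when any other single replicate (0.0736 to 0.212) or replicate 3 of both genotypes (0.173) was left out. Il12rb2 (Entrez 16162, chromosome 6, positions 67285986 to 67376293) shares 3317 bases with Serbp1 on the other strand, and the sources do not state whether the counting used strand. Serbp1, which encodes an mRNA-binding protein, averaged 987 ± 44.6 CPM in Id2-null cultures, against 864 ± 18.3 CPM in WT cultures (SD, n = 3 each).

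The partner chain Il12rb1 did not pass the test. Its level was 269, 250 and 149 CPM in Id2-null replicates 1 to 3, against 276, 310 and 258 CPM in WT replicates 1 to 3 (log2 fold change -0.33, SE 0.21, edgeR adjusted p = 0.559). The genotypes overlapped, and Id2-null replicate 3 was the lowest of the 6. IL-12Rβ1 is also part of the IL-23 receptor, whose other chain, Il23r, was below the expression filter.

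The IL-18 receptor chains differed little between genotypes. Il18r1, the chain that binds IL-18, stood at 352, 290 and 300 CPM in Id2-null replicates 1 to 3, against 249, 241 and 286 CPM in WT replicates 1 to 3 (log2 fold change 0.29, SE 0.13, edgeR adjusted p = 0.352). Il18rap, the accessory chain, stood at 164, 145 and 167 CPM in Id2-null replicates 1 to 3, against 202, 178 and 195 CPM in WT replicates 1 to 3 (log2 fold change -0.27, SE 0.11, edgeR adjusted p = 0.33). Values of each gene did not overlap between genotypes, Il18r1 being higher and Il18rap lower in Id2-null cells, but neither difference was called. The genes lie side by side on chromosome 1, 14507 bases apart (Il18r1 at positions 40465552 to 40500854 and Il18rap at 40515362 to 40551707).

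Il10ra, the ligand-binding chain of the IL-10 receptor, averaged 164 ± 26.4 CPM in Id2-null cultures, against 160 ± 28.1 CPM in WT cultures (SD, n = 3 each; log2 fold change 0.04, SE 0.17, edgeR adjusted p = 0.949), and the genotypes overlapped. Il7r, whose product binds IL-7 on T cells and innate lymphoid cells, had counts of 7, 1 and 2 in Id2-null replicates 1 to 3 and of 5, 4 and 5 in WT replicates 1 to 3. Il6ra, the chain that binds IL-6, had 0 counts in all 6 cultures. Both were under the expression filter and were not tested.

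In the fit over all 11022 genes, 210 (1.91%) were called higher and 167 (1.52%) lower in Id2-null cells at an adjusted p under 0.05. Of the 8 genes tested here, 3 were called higher and 0 lower. At an unadjusted p under 0.05 it was 3 higher and 2 lower, against 7.3% and 7.33% of all genes. DESeq2 called 3 higher and 1 lower, against 2.37% and 2.02% of the genes it gave an adjusted p, and limma voom called 3 and 1, against 1.58% and 1.35%. With the replicate block edgeR also called 3 higher and 1 lower, against 4.1% and 3.47% of all genes. Values that did not overlap between genotypes were found for 4 of the 8 in the higher direction and 2 in the lower, against 9.93% and 10.5% of all genes tested. The median log2 fold change was 0.16 over these 8 and 0.01 over all tested genes. Because the names were selected with this comparison known, these shares are a description.

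**Figure D2:**
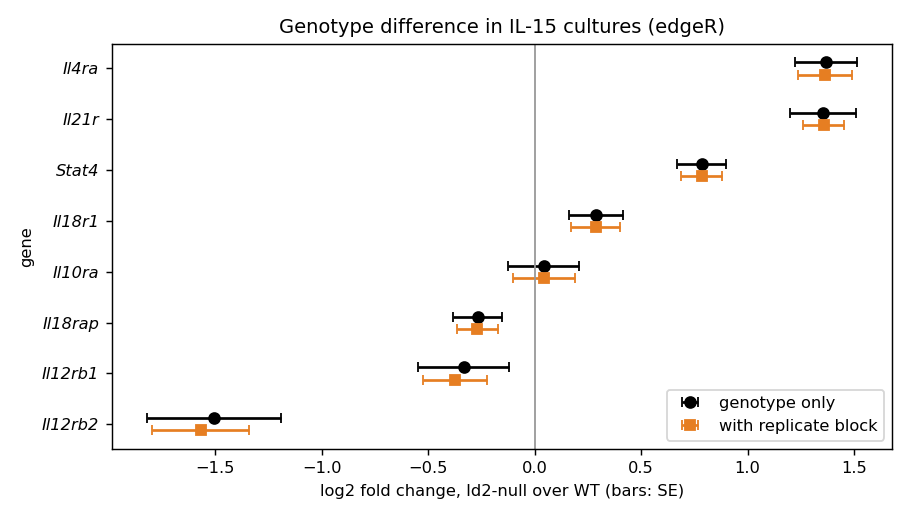
Log2 fold change of Id2-null over WT cultures (x axis) for the 8 tested genes (y axis), with SE bars, from the edgeR fit with genotype only (circles) and with the replicate number as a block (squares). Il4ra and Il21r lie at 1.37 and 1.35 and Il12rb2 at -1.51, and the blocked values are close to the others.

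Set per length, the order of the receptors differed between the genotypes. Levels between genes are given in CPM per kilobase of the deposited gene length. In Id2-null cells Stat4 led at 154 ± 7.88, followed by Il21r at 111 ± 14.4, Il4ra at 89.2 ± 12.5, Il12rb1 at 77.5 ± 22.5, Il18r1 at 65.7 ± 6.97, Il18rap at 63.8 ± 4.86, Il10ra at 47.0 ± 7.56 and Il12rb2 at 35.7 ± 15.8 CPM per kilobase (SD, n = 3 each). In WT cells the order began with Il12rb2 at 102 ± 17.9, Il12rb1 at 98.0 ± 9.19 and Stat4 at 89.9 ± 6.21, then Il18rap at 77.2 ± 4.97, Il18r1 at 54.1 ± 4.98, Il10ra at 45.8 ± 8.03, Il21r at 43.6 ± 6.68 and Il4ra at 34.7 ± 3.89 CPM per kilobase. The IL-12 signalling chain was thus first in WT and eighth in Id2-null cultures, and Il4ra and Il21r went the other way. Neighbours whose libraries overlapped in level were, in Id2-null cells, Il4ra with Il12rb1, Il12rb1 with Il18r1, Il18r1 with Il18rap, and Il10ra with Il12rb2. In WT cells they were Il12rb2 with Il12rb1, Il12rb1 with Stat4, Il18r1 with Il10ra, Il10ra with Il21r, and Il21r with Il4ra. Il7r and Il6ra were last in both genotypes, at no more than 0.295 CPM per kilobase on average.

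In both heterodimers the ratio of the paired chains was lower in the Id2-null than in the WT libraries. The ratio of Il12rb2 to Il12rb1, per length, was 0.574, 0.332 and 0.471 in Id2-null replicates 1 to 3, against 1.17, 0.751 and 1.24 in WT replicates 1 to 3. Il18rap to Il18r1 was 0.897, 0.958 and 1.07 in Id2-null replicates 1 to 3, against 1.56, 1.42 and 1.32 in WT replicates 1 to 3. Neither ratio overlapped between genotypes. The ratios are a description of the same values and were not tested, and none of these chains was called with genotype alone. Among single genes, 9.93% were higher and 10.5% lower without overlap, and no such share is given for ratios of gene pairs. In the sorted libraries the Il12rb2 to Il12rb1 ratio was 2.50 in Immature, 5.01 in M1 and 8.21 in M2 cells, and the Il18rap to Il18r1 ratio was 1.83, 2.28 and 4.03. All 3 sorted libraries were above all 6 cultures in both ratios.

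**Figure D3:**
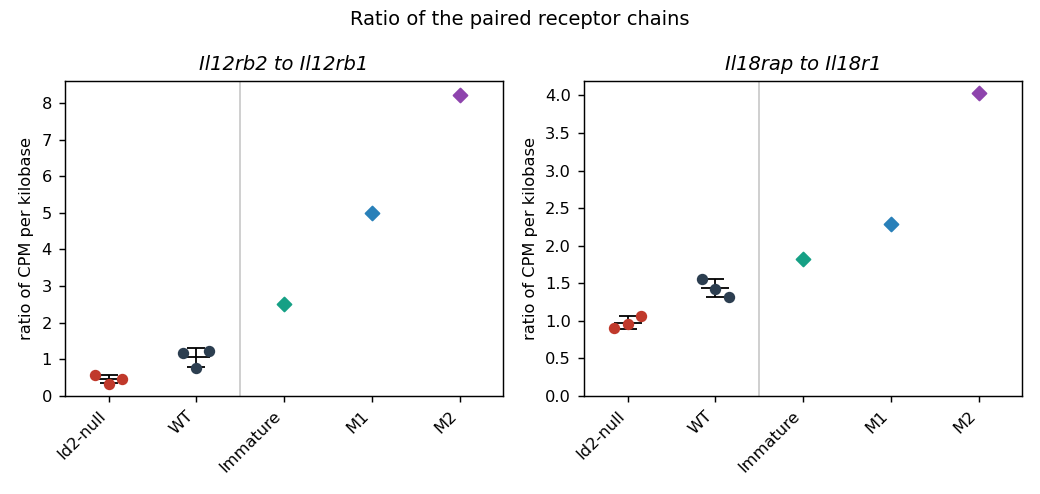
Ratio of CPM per kilobase of the paired chains (y axis) by library: Il12rb2 to Il12rb1 (left) and Il18rap to Il18r1 (right). Circles are cultures with mean and SD (n = 3 per genotype), and diamonds are single sorted libraries; Id2-null cultures are lowest in both panels and M2 is highest.

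The sorted libraries ask how these receptors stand along the named stages Immature, M1 and M2. There is 1 library per stage, so ratios carry exact 95% intervals for counting error only and no test. Il7r differed most. Its level was 256, 45.1 and 34.6 CPM in Immature, M1 and M2, and the ratio of M2 to Immature was 0.135 (0.112 to 0.162). The 8 T cell markers summed to 704, 221 and 212 CPM in Immature, M1 and M2. Cd3d, Cd3e and Cd3g, subunits of the T cell receptor complex, stood at 234, 108.5 and 159 CPM in the Immature library, and each was lower in M1 and M2, as was Cd28. The lineage markers Cd4, Cd8a and Cd8b1 were highest in M2, at 11.0, 13.0 and 7.02 CPM there and at 4.58, 7.13 and 1.02 CPM in Immature. The list of other innate lymphoid cell markers summed to 382, 238 and 135 CPM in the same order. The part of these cells in the Il7r values was not tested.

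Il12rb2, Il18rap and Il10ra were higher at each later stage. Il12rb2 had 168, 302 and 428 CPM in Immature, M1 and M2, a ratio of M2 to Immature of 2.55 (2.33 to 2.79). Il18rap stood at 445, 641 and 869 CPM in the same order, with a ratio of 1.95 (1.84 to 2.07), and Il10ra at 275, 391 and 439 CPM, with a ratio of 1.59 (1.48 to 1.72). Il4ra was lower at each later stage, at 204, 145 and 103 CPM (ratio of M2 to Immature 0.507, 0.449 to 0.571). Il21r was lower in both mature libraries, at 91.4 CPM in Immature and 58.9 and 59.6 CPM in M1 and M2 (ratio of M2 to Immature 0.652, 0.551 to 0.771). Il12rb1 stood at 65.5, 58.9 and 50.9 CPM, Il18r1 at 469, 539 and 414 CPM, and Stat4 at 488, 523 and 457 CPM in Immature, M1 and M2.

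Il6ra was detected at the edge of the depth, with 14, 12 and 17 counts in Immature, M1 and M2. Myeloid markers were present in these libraries, and the sum of 7 genes was highest in M2, at 1141, 1325 and 1720 CPM in Immature, M1 and M2. Much of that sum was the integrin gene Itgax, which was lowest in M2, at 960, 1130 and 837 CPM in the same order. Lyz2, the lysozyme of macrophages and granulocytes, stood at 56.8, 60.1 and 231 CPM and was at 0 in all 6 cultures. B cell markers summed to 21.6, 26.1 and 84.7 CPM in the sorted libraries and to at most 1.76 CPM in any culture. The part of such cells in the sorted values of Il6ra, Il10ra and Il4ra was not tested.

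By a rule of over 2-fold and at least 10 CPM in one of the libraries compared, M2 over Immature put 1 of these genes higher (Il12rb2) and 1 lower (Il7r), against 5.36% and 4.37% of all 9173 genes at that minimum. M1 over Immature put 0 higher and 1 lower (Il7r), against 1.43% and 2.99% of genes, and M2 over M1 put none in either direction, against 2.95% and 1.14%. The genotype comparison shares no library with these. Side by side, each pair gives the log2 fold change of Id2-null over WT cultures, then the linear ratio of M2 over Immature. Il4ra had 1.37 and 0.507, Il21r 1.35 and 0.652, and Il12rb2 -1.51 and 2.55. Stat4 had 0.78 and 0.937, Il18r1 0.29 and 0.883, and Il18rap -0.27 and 1.95. Il12rb1 had -0.33 and 0.777, and Il10ra 0.04 and 1.59. The genotypes overlapped for Il12rb1 and Il10ra and neither was called, so no genotype direction is read for them. A relation between the comparisons was not tested.

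**Figure D4:**
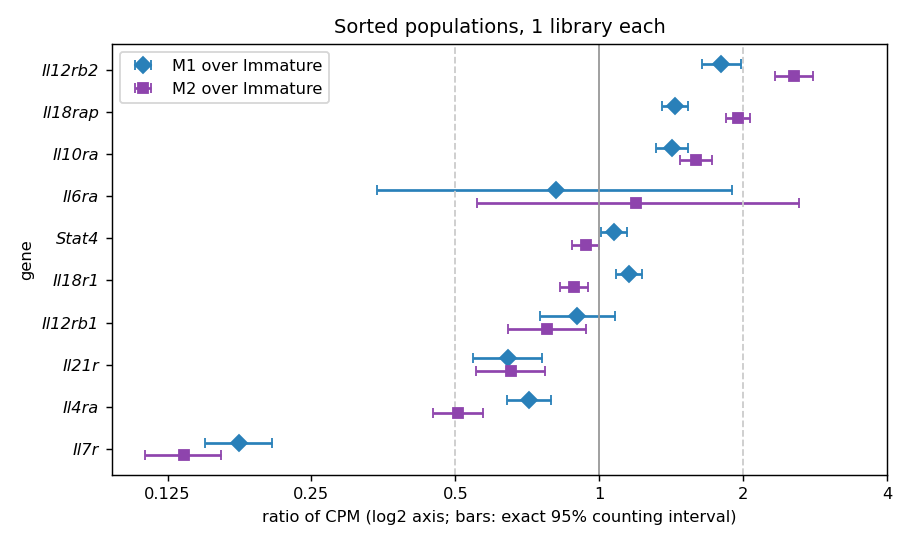
Ratio of CPM in M1 over Immature (diamonds) and M2 over Immature (squares) for the 10 genes, on a log2 axis, with exact 95% counting intervals and dashed lines at 2-fold. Il12rb2 is the only gene past the upper line and Il7r the only one past the lower line, and the Il6ra intervals are wide because its counts are 12 to 17.

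Set against the sorted libraries, the WT cultures had more Il12rb1 and less of several other chains. Il12rb1 stood at 258 to 310 CPM in WT cultures, against 50.9 to 65.5 CPM in the sorted libraries, 4.82 times their mean. The Id2-null cultures, at 149 to 269 CPM, were also above every sorted library. Il18rap stood at 178 to 202 CPM in WT cultures, against 445 to 869 CPM in the sorted libraries. Il7r averaged 0.946 CPM in WT cultures, against 112 CPM over the sorted libraries, and even the lowest sorted library was 33.2 times the highest WT culture. Il6ra had 0 counts in the WT cultures, so it was at least 4.63-fold lower there than in the lowest sorted library, by a limit of 3 counts per library.

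Il10ra (129 to 184 CPM), Il18r1 (241 to 286 CPM) and Stat4 (247 to 280 CPM) were below all 3 sorted libraries in WT cultures, each by under 2-fold at the nearest library. Il21r was above them, at 99.9 CPM or more in WT cultures and at most 91.4 CPM in sorted cells. Il4ra and Il12rb2 overlapped. By the 2-fold rule 1 of the 9 genes that reached 10 CPM was higher in WT cultures and 2 were lower, against 8.1% and 8.13% of all 9988 genes at that minimum. The sources do not say which of these populations entered culture. Xist averaged 0.663 CPM in WT cultures, against 90.5 to 127 CPM in the sorted libraries. Culture, composition and sex therefore cannot be told apart here.

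Lists of partners, ligands, related receptors and induced genes held 65 genes, of which 50 were tested, 4 called higher and 2 lower in Id2-null cells, against the 1.91% and 1.52% of all genes. Their median log2 fold change was 0.10, against 0.01 over all genes. Blocking on the replicate number gave 10 higher and 5 lower, against 4.1% and 3.47% of all genes in that fit. Of 7 shared chains and kinases tested, 0 were called by edgeR or limma voom. At an unadjusted edgeR p under 0.05, 3 were higher and 0 lower, against 7.3% and 7.33% of all genes. DESeq2 called 2 higher, against 2.37% of its genes. Jak1, the kinase bound to most of these receptors, averaged 1249 ± 70.7 CPM in Id2-null cultures, against 949 ± 23.4 CPM in WT cultures (SD, n = 3 each; edgeR adjusted p = 0.106, and 0.0247 with DESeq2). Il2rg, the common gamma chain that completes the IL-4, IL-7 and IL-21 receptors, averaged 588 ± 98.5 CPM in Id2-null cultures, against 652 ± 46.1 CPM in WT cultures (edgeR adjusted p = 0.741). Il10rb, the second chain of the IL-10 receptor, was called with the replicate block (log2 fold change 0.45 and adjusted p = 0.083 without the block, adjusted p = 0.0414 with it). Of the 6 STAT genes other than Stat4, 0 were called by edgeR, DESeq2 or limma voom and 0 had an unadjusted p under 0.05. Stat6, the factor of IL-4 signalling, stood at 261, 229 and 250 CPM in Id2-null replicates 1 to 3, against 270, 292 and 263 CPM in WT replicates 1 to 3 (edgeR adjusted p = 0.619). Stat3 averaged 297 ± 37.5 CPM in Id2-null cultures, against 283 ± 18.7 CPM in WT cultures (edgeR adjusted p = 0.864).

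Of 9 IL-18 signalling genes 1 rose and 0 fell, against 1.91% and 1.52% of all genes. It was Irak3, which encodes an inhibitor of MyD88 signalling, at 5.72, 2.54 and 2.04 CPM in Id2-null replicates 1 to 3, against 0.208, 0.208 and 0.385 CPM in WT replicates 1 to 3 (edgeR adjusted p = 0.0254). Its WT counts were 1, 1 and 2, and the call was lost without any 1 replicate other than Id2-null replicate 3 (adjusted p 0.0641 to 0.144). Of 10 ligand genes only Il10 passed the expression filter. It rose, with counts of 36, 50 and 13 in Id2-null replicates 1 to 3, against 0, 1 and 0 in WT replicates 1 to 3 (edgeR adjusted p = 0.0101). This call was lost without WT replicate 1 or 2 (adjusted p 0.0741 and 0.0646). The other ligand genes, Il4, Il21, Il12a, Il12b, Il23a, Il18, Il7, Il6 and Il13, did not exceed 5.76 CPM in any library.

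Among 13 related receptor genes tested, Ifnar2, a chain of the type I interferon receptor, rose to 146 ± 4.06 CPM in Id2-null cultures, against 96.2 ± 6.73 CPM in WT cultures (SD, n = 3 each; log2 fold change 0.60, edgeR adjusted p = 0.0189). Crlf2, the chain that binds thymic stromal lymphopoietin together with the IL-7 receptor chain, fell to 38.7 ± 2.32 CPM in Id2-null cultures, against 61.1 ± 5.91 CPM in WT cultures (log2 fold change -0.65, edgeR adjusted p = 0.032). Both calls were lost without any 1 replicate other than Id2-null replicate 3 (adjusted p 0.0668 to 0.12). With the replicate block the calls in this list were 5 higher (Il2ra, Ifngr1, Ifnar1, Il10rb and Ifnar2) and 1 lower. The shares of all genes in that fit were 4.1% and 3.47%. Of 15 genes that these and related cytokines induce in lymphocytes, 1 rose and 1 fell, against 1.91% and 1.52% of all genes. Gadd45g, a stress-response gene induced by IL-12 and IL-18 in T cells, fell to 23.3 ± 5.50 CPM in Id2-null cultures, against 82.0 ± 26.5 CPM in WT cultures (log2 fold change -1.81, edgeR adjusted p = 0.0125). Socs2, a suppressor of cytokine signalling, rose to 92.8 ± 17.8 CPM in Id2-null cultures, against 47.1 ± 3.38 CPM in WT cultures (edgeR adjusted p = 0.0128). The Gadd45g call was lost when Id2-null replicate 1, Id2-null replicate 2 or WT replicate 1 was left out (adjusted p 0.0522 to 0.0603), and that of Socs2 without Id2-null replicate 1 or WT replicate 1 or 2 (adjusted p 0.0615 to 0.0741). Ifng itself was not called, with 24.7 ± 17.7 CPM in Id2-null cultures, against 32.9 ± 9.90 CPM in WT cultures (edgeR adjusted p = 0.805). With the replicate block the calls in this list were 3 higher (Socs2, Socs3 and Pim2) and 4 lower (Gadd45g, Cish, Prdm1 and Tbx21). The shares of all genes in that fit were again 4.1% and 3.47%.

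**Figure D5:**
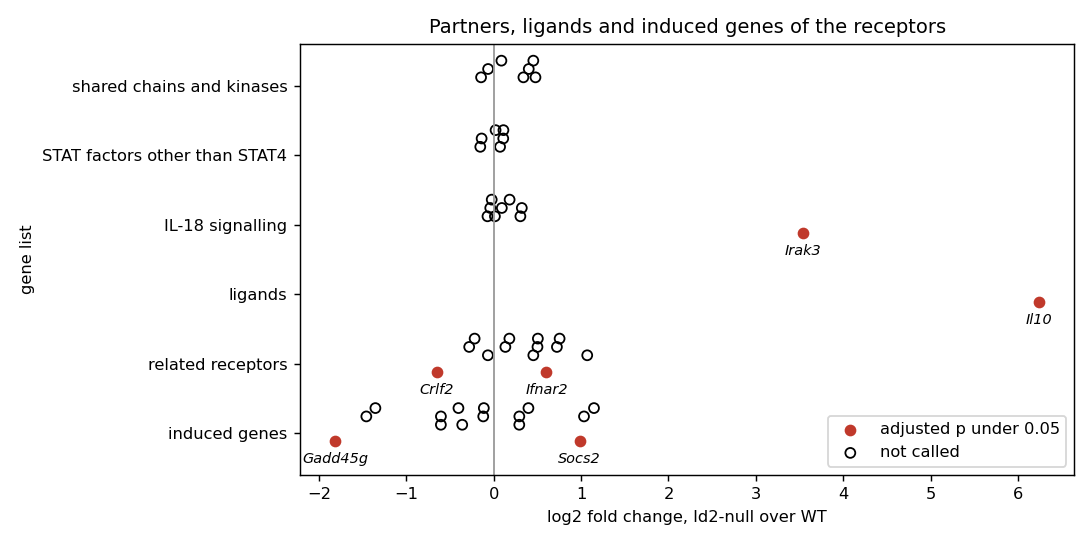
Log2 fold change of Id2-null over WT cultures (x axis) for each tested gene of the 6 lists (y axis); filled points have an adjusted p under 0.05 in edgeR and are named, and open points were not called. The 6 called genes are Irak3, Il10, Ifnar2, Socs2, Crlf2 and Gadd45g; the fitted values of Il10 and Irak3 depend on the prior count, since their WT counts are near 0.

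T cell and B cell genes were also measured beside the Il4ra and Il21r differences, as B and T cells carry both receptors. The 8 T cell markers summed to 363 to 486 CPM in Id2-null cultures, against 156 to 326 CPM in WT cultures, with Cd4 at 0 in all 6. Of the 4 that were tested, edgeR called 0. At an unadjusted edgeR p under 0.05, 3 were higher and 0 lower, against 7.3% and 7.33% of all genes. DESeq2 and limma voom each called 1 higher, against 2.37% and 1.58%. With the replicate block Cd3d and Cd28 were called higher and Cd3e lower, against 4.1% and 3.47% of all genes in that fit. The B cell markers summed to at most 1.76 CPM in Id2-null cultures and at most 0.833 CPM in WT cultures. The part of the T cell markers in the Il4ra and Il21r differences was not tested.

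Across the 9 libraries, the genes whose log2(CPM + 1) correlated best with each called receptor were sought among 9096 genes with a mean of at least 10 CPM. For Il4ra they were Mcoln2 (Pearson r 0.988), Tmem131l (0.982) and N4bp2 (0.976). For Il21r they were Cldnd1 (0.981), Mapk11 (0.976) and Ivns1abp (0.970), and for Stat4 Acss1 (0.975), Arl5c (0.972) and Pik3ip1 (0.967). Mcoln2, which encodes a lysosomal cation channel, stood at 68.9 to 83.9 CPM in Id2-null cultures, 30.2 to 36.2 CPM in WT cultures and 23.1 to 36.7 CPM in sorted libraries, the same division as Il4ra. The 9 libraries form 5 groups and share depth and scaling, so these values describe likeness only.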

How the data were processed

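The deposited files hold unnormalised read counts by Entrez identifier with each gene's length, per the file headers. The submitters' processing notes name Subread, featureCounts, limma and GRCm38 (mm10). The sources give no versions, annotation or strand setting. Symbols and positions came from RefSeq GRCm38.p6 (25275 of 27179 identifiers matched).

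Id2-null and WT cultures were compared with edgeR 4.0.16 in R 4.3.3: filterByExpr (minimum count 10; 11022 genes), TMM, a robust quasi-likelihood fit with genotype alone, and Benjamini-Hochberg adjustment over all tested genes, called under 0.05. SE is the log2 fold change over the root of F. Alternatives used DESeq2 1.42.0, limma 3.58.1 voom, other scaling and filters, left-out replicates and a replicate block. Deviations from the genotype means correlated between same-numbered libraries (Pearson r 0.359, 0.245 and 0.422). They also correlated weakly between replicates 1 and 2 of different genotype (0.128 and 0.191). Replicate 3 against another number gave -0.265 to -0.404. The labels do not say what a replicate number shares. The printed fit therefore has no block, and blocked values are given where they change a call. Printed CPM use TMM over all 9 libraries. The sorted libraries were compared by ratio, without a test. The fit was also run on simulated counts with a fixed dispersion and no replicate effect. That run checks the code only and cannot show how the fit behaves on these libraries.

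The genes, lists and tests were chosen with earlier results of these data known. Genes named were the 10 above, called list members, otherwise the 2 most expressed of a list, and the 3 best correlated with each called gene; Nsmce1, Gtf3c1, Serbp1, Il10rb, Ifng, Il2ra, Ifngr1, Ifnar1, Socs3, Pim2, Cish, Prdm1, Tbx21, Il23r, Xist, Ddx3y and the named marker genes were added after their values were seen. Some results are not reported here.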

Additional observations from a re-analysis of the deposited data

How the results depend on the processing

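The rises of Il4ra, Il21r and Stat4 kept their direction under all 14 alternatives; Il4ra and Il21r kept their calls, and Stat4 lost its call without WT replicate 1 or 2. Il12rb2 kept its direction, and its call changed with the setting as given above: 1 of these genes was lower with the replicate block, DESeq2, limma voom, library sizes alone or no robust estimation (chosen after seeing the data), and 0 to 1 without a single replicate. The cause was not tested. Il10ra, which was not called under any of them, had log2 fold changes of -0.0922 (WT replicate 3 left out) to 0.152 (WT replicate 2 left out) over the single left-out replicates, -0.0840 with Id2-null replicate 1 left out and -0.0750 with replicate 3 of both genotypes left out. Stat3 had -0.0297 in the last setting.

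Over all genes, calls were 452 higher and 383 lower with the replicate block and 571 and 494 without replicate 3 of both genotypes; DESeq2 called 266 lower. Leaving out single replicates gave 67 (WT replicate 1) to 387 (Id2-null replicate 3) higher and 54 (WT replicate 1) to 275 (Id2-null replicate 3) lower. Of the partner lists, 10 were higher and 5 lower with the block, against 4.1% and 3.47% of all genes in that fit. DESeq2 gave 10 and 4, against 2.37% and 2.02% of its genes. Leaving out replicate 3 of both genotypes gave 10 and 6, and leaving out a single replicate gave 0 to 8 higher and 0 to 5 lower. No share of all genes is given for the left-out settings, so those counts describe the lists alone. The block changed no other call of the 8 genes.

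At 1.5-fold, M1 over Immature put 1 of the genes higher and 2 lower, and M2 over Immature 3 and 3. At 3-fold, M2 over Immature put 0 higher, and WT cultures over sorted libraries put 1 lower. With library sizes alone as scaling, M2 over Immature put 2 lower, Il4ra besides Il7r. Shares over all genes are given above only at 2-fold with TMM scaling. The counts in these other settings therefore describe these genes alone. Depth limits Il6ra, with 0 counts in every culture and 12 to 17 in the sorted libraries, and Irak3 and Il10, with at most 2 counts in any WT culture.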
